A study of Mus musculus with 8 samples.

Results

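The acute-phase protein genes described here are 10 genes of mouse liver: the serum amyloid A genes Saa1, Saa2, Saa3 and Saa4, the orosomucoid genes Orm1, Orm2 and Orm3, the lipocalin Lcn2, the haptoglobin gene Hp and the metalloreductase gene Steap4. They were chosen by name, with earlier results of these data known, and each was found on the arrays through the accession of its probe. Each gene had 1 probe on 1 spot, so the set holds 10 of the 55681 probes and 10 of the 20284 named genes. All 10 genes were among the 14582 genes that could be tested.

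The acute-phase response is the change in plasma proteins that the liver makes during infection, injury or other inflammation. Interleukin-6 and related cytokines act through STAT3, and interleukin-1 acts through NF-kappaB, to raise transcription of these genes in hepatocytes, and C/EBP factors and glucocorticoids act with them. Serum amyloid A proteins ride on high-density lipoprotein, orosomucoids carry small molecules in plasma, haptoglobin binds free haemoglobin, lipocalin 2 withholds iron-loaded siderophores from bacteria, and Steap4 reduces metal ions at cell membranes.

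The study set liver RNA of mice lacking Btg2 in the whole body (Btg2, also called TIS21 or PC3, restrains cell growth) against that of wild-type C57BL/6J mice, under the subject of starvation. The 4 RNA samples were a wild-type and a knockout sample from males aged 10 weeks after a fast of 20 h, and a wild-type and a knockout pool of fetal livers of embryonic day 13.5. Fed adults were not analysed here. Each fetal pool joined more than 3 fetuses, male and female, of 1 womb; how many adult mice gave an adult sample, and which part of Btg2 was removed, are not given in the sources used here. Every sample was hybridised to 2 arrays as technical duplicates, so p-values measure array error and compare 4 RNA samples, not genotypes. The signal of Btg2 itself was lower by at least 7.63-fold in adult and by at least 99.7-fold in fetal knockout liver (limma, adjusted p = 8.3e-07 and 1.4e-06). The adult arrays had a 75th percentile of 132 to 171 signal units, the fetal ones of 277 to 333, and duplicates correlated at r of 0.992 to 0.997. Of the markers of hepatocytes, the cells that define the labelled tissue, all 12 were well above background on every adult array and 10 to 12 on the fetal arrays. Values below are scaled signals, the signal of a probe divided by the 75th percentile of its array. Since a probe's brightness depends on its sequence, values of different genes are not set against each other. A call required an adjusted p under 0.05 in limma and a difference of at least 2-fold.

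Promoter sequences were at hand for 8 of the 10 genes (RefSeq, GRCm38.p6); Orm1 and Hp had no entry in that table. The 250 bases before the start of 7 genes are shown, 5′ to 3′ on the gene's strand. Saa1 with Saa2 and Orm2 with Orm3 are neighbouring copies whose signals are compared below, and Saa4, Lcn2 and Steap4 had the other called differences. Capitals mark matches to the C/EBP motif TTGCNCAA, the STAT motif TTCNNNGAA and the NF-kappaB motif, searched on both strands.
Saa1, chr7:46742981-46743230, minus strand: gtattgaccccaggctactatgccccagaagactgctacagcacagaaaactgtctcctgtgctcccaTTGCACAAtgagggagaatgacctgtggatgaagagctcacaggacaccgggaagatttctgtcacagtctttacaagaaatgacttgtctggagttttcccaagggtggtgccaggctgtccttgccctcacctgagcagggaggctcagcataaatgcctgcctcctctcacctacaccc
Saa2, chr7:46751583-46751832, plus strand: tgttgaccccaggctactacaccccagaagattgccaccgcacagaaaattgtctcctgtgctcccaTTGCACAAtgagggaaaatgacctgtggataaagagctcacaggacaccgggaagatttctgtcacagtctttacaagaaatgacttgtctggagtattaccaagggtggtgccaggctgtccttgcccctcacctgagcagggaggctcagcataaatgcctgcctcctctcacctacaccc
Saa4, chr7:46732604-46732853, minus strand: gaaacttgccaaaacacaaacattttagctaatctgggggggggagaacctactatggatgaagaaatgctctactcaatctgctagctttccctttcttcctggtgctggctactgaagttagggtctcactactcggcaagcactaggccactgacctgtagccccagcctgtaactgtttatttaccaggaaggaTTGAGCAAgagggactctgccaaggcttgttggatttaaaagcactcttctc
Orm2, chr4:63362199-63362448, plus strand: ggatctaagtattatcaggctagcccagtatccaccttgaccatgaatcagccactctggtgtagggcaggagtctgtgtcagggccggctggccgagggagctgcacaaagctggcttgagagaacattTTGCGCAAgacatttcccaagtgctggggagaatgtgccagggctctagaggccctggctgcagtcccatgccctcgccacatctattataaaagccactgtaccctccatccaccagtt
Orm3, chr4:63355908-63356157, plus strand: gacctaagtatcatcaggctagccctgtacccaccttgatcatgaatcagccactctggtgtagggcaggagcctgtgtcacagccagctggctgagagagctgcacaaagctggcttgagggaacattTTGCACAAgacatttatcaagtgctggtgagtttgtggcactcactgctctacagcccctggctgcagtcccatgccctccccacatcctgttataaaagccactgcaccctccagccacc
Lcn2, chr2:32387740-32387989, minus strand: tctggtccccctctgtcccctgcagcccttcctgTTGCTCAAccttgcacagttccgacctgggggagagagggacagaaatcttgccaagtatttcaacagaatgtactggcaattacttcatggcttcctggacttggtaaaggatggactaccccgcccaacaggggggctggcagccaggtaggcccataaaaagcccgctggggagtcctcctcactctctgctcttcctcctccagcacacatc
Steap4, chr5:7960222-7960471, plus strand: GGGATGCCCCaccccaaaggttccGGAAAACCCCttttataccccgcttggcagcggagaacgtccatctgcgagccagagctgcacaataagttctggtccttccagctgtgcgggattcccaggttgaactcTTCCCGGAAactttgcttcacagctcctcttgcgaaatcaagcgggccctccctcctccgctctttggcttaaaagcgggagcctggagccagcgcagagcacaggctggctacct

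The C/EBP motif had a match in 6 of the 8 promoters, against 2.61% of 32851 mouse promoters of the same length. In Saa1 and Saa2 the match began 182 and 183 bases before the start, in Orm2 and Orm3 120 and 121 bases, in Lcn2 216 bases and, on the opposite strand, in Saa4 52 bases. Counted from 1 at the first base of the match, Orm2 and Orm3 differed there by the substitution G5A. Saa3 and Steap4 had no C/EBP match in this window. Steap4 alone held a STAT match, 116 bases before its start, and NF-kappaB matches, at 250 and 226 bases. The STAT motif matched 7.02% and the NF-kappaB motif 7.25% of all promoters. The glucocorticoid receptor motif matched none of the 8 and 0.387% of all promoters. These are letter matches in a window and not measured sites. Over the 250 bases, Saa1 and Saa2 were identical at 94.8% of aligned positions (238 of 251) and Orm2 and Orm3 at 85.9% (219 of 255), while the other pairs lay between 45.7% and 55.0%.

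In fasted adult liver, 4 of the 10 genes differed by 2-fold or more between the knockout and the wild-type sample, in both directions. Saa4 and Steap4 were higher in the knockout, and Lcn2 and Orm3 were lower. Among all genes tested, 7.47% were called in this comparison (4.94% higher and 2.52% lower). The median log2 difference of the 10 genes was 0.26, and that of all genes tested was -0.10. At any fold, 7 of the 10 had an adjusted p under 0.05, against 55.6% of all genes. As the 10 genes were chosen with earlier results of these data known, these shares do not test the set.

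**Figure D1:**
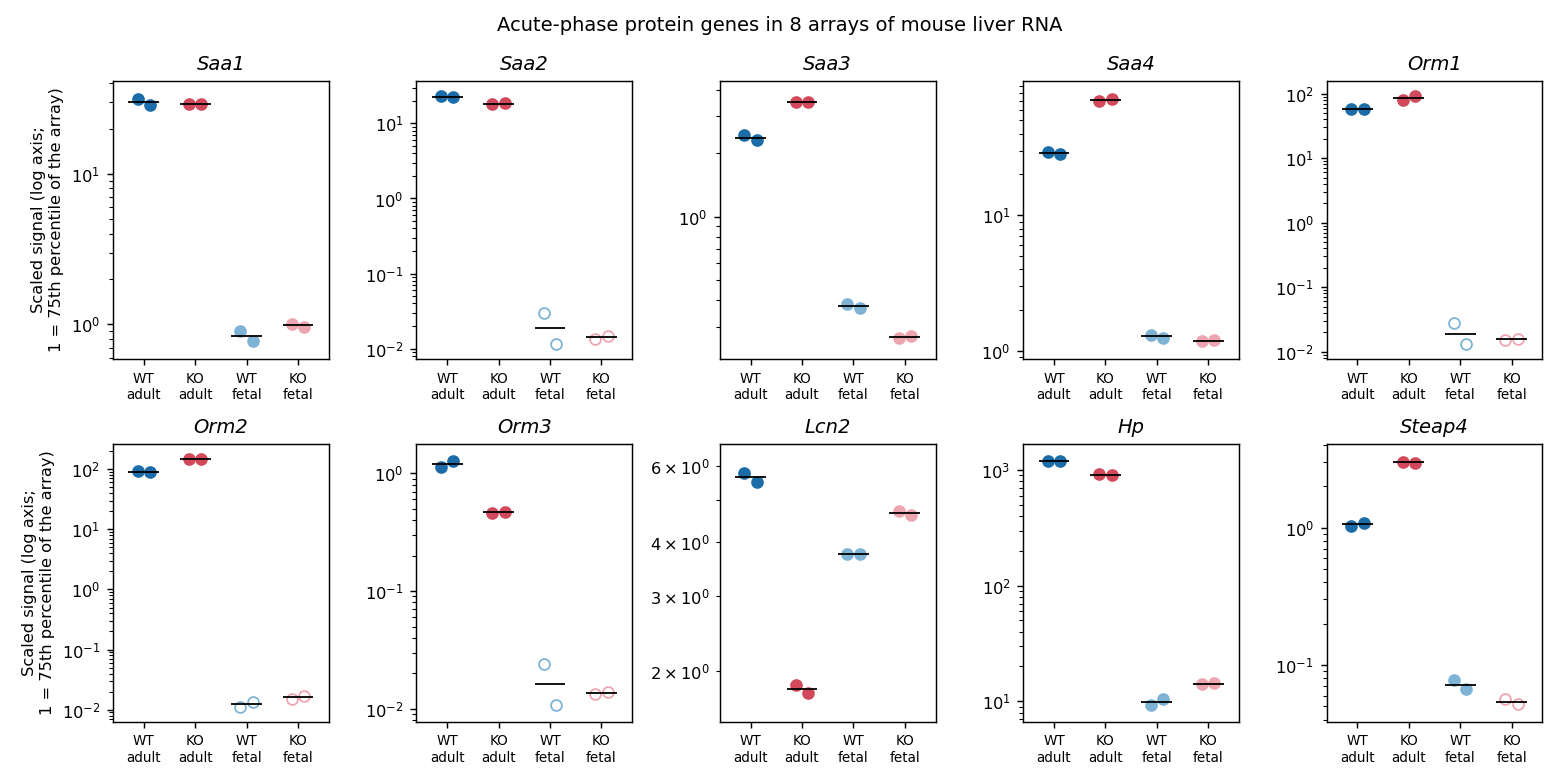
Scaled signal of the 10 genes on each of the 8 arrays (log axis, with its own range in each panel; 1 is the 75th percentile of the array). Each point is 1 array, the bar is the geometric mean of the 2 arrays, and open points were not well above background; Saa2, Orm1, Orm2 and Orm3 have open points on all 4 fetal arrays, and only Lcn2 has its lowest signals in an adult group.

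Saa4 encodes the constitutive serum amyloid A, which inflammation changes less than the other family members. Its scaled signal was 29.4 and 28.1 in adult wild type and 69.4 and 72.2 in adult knockout. The groups did not overlap, as held for 77.4% of all genes tested. The knockout sample was 2.46-fold higher (log2 1.30 ± 0.04 SE, limma adjusted p = 4.3e-07).

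The inducible family members did not share that size of difference. Saa1 had a scaled signal of 31.3 and 28.8 in adult wild type and of 29.3 and 29.0 in adult knockout. The arrays overlapped, and the log2 difference of -0.04 ± 0.07 was within array error (limma adjusted p = 0.64) and changed sign with the scaling. Saa2, its close copy, was at 22.8 and 22.5 in wild type and at 18.1 and 18.6 in knockout. Both knockout arrays were lower; the log2 difference was -0.31 ± 0.38 (limma adjusted p = 0.52) and -0.11 with median scaling. The error of that fit was shared with the fetal arrays, where Saa2 was not well above background and its wild-type duplicates read 0.0302 and 0.0117. With the 4 adult arrays alone the SE was 0.03 and the adjusted p was 0.0005, still under 2-fold. Saa3, the member that macrophages and fat cells also make, had a scaled signal of 2.44 and 2.31 in wild type and of 3.53 and 3.49 in knockout. The knockout was higher by a log2 difference of 0.56 ± 0.07 (limma adjusted p = 2.6e-04), which is less than 2-fold. With median scaling the difference of Saa3 was 0.76 ± 0.30 and did not pass (limma adjusted p = 0.072).

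The orosomucoid genes lie in 1 cluster, and the alike promoters of Orm2 and Orm3 are shown above; their signals parted in direction. Orm1 was at 58.3 and 56.6 in adult wild type and at 79.8 and 91.3 in adult knockout. Both knockout arrays were the higher, with a log2 difference of 0.57 ± 0.29 (limma adjusted p = 0.14, or 7.8e-04 from the adult arrays alone). Orm2 was at 91.8 and 89.6 in wild type and at 144.8 and 148.9 in knockout, a rise of 0.70 ± 0.10 (limma adjusted p = 8.0e-04) that stayed under 2-fold. Orm3 was the exception, at 1.13 and 1.28 in wild type and 0.463 and 0.473 in knockout. It was 2.57-fold lower in the knockout (log2 -1.36 ± 0.35, limma adjusted p = 0.014). That call was lost when adult wild-type array 2, adult knockout array 1 or adult knockout array 2 was left out (adjusted p = 0.061, 0.063 and 0.059) and, at a log2 difference of -0.87, with normexp background correction. It was kept in the fit of the adult arrays alone (SE 0.11, limma adjusted p = 2.0e-04). The error of the main fit was shared with the fetal arrays, where Orm1 and Orm3 were not well above background. There the wild-type duplicates read 0.0273 and 0.0132 for Orm1 and 0.0240 and 0.0109 for Orm3. Orosomucoid mRNAs are alike in sequence, and how far a probe of 1 gene captures RNA of another was not tested.

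Lcn2 is known from neutrophil granules as well as from the inflamed liver. The adult wild-type arrays read 5.80 and 5.51 and the adult knockout arrays 1.86 and 1.78. The groups were well apart, and the knockout was 3.1-fold lower (log2 -1.63 ± 0.04, limma adjusted p = 2.1e-07). Hp was at 1204 and 1197 in wild type and at 920.1 and 902.2 in knockout. It fell by 0.40 ± 0.05 on the log2 scale (limma adjusted p = 3.0e-04), but the fall depended on the scaling and was 0.08 with quantile normalization (adjusted p = 0.23). Steap4, an enzyme of fat cells, liver and myeloid cells, had a scaled signal of 1.03 and 1.09 in wild type and of 3.03 and 2.95 in knockout. It was 2.82-fold higher in the knockout (log2 1.49 ± 0.12, limma adjusted p = 4.6e-05).

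Markers of macrophages differed between the adult samples at the same time. In the knockout 12 of 13 tested were called higher and none lower, with a median log2 difference of 2.95; Lyz2 (lysozyme) differed by 4.43 ± 0.07 and Adgre1 (F4/80) by 3.23 ± 0.04. Their summed scaled signal was 69.2 to 72.2 in adult wild type and 380.2 to 388.7 in adult knockout, and Timd4 was not well above background in the former. Of 12 neutrophil markers 2 were called higher, S100a8 (1.71 ± 0.14) and S100a9 (1.24 ± 0.03), and none lower; the sum was 5.17 to 5.26 in wild type and 5.95 to 6.11 in knockout, and Ngp, Ltf, Mmp8, Mmp9, Retnlg and Cxcr2 were not well above background on any adult array. Of 12 hepatocyte markers none was called. By limma, 10 had an adjusted p under 0.05, against 55.6% of all genes. Their median difference was -0.22, and the sum was 10560 to 10650 in wild type and 8891 to 8971 in knockout. Of 8 adipocyte markers listed only 4 could be tested, with 1 higher (Lpl, 1.76 ± 0.07) and a sum of 13.8 to 14.4 against 18.6 to 18.7. Endothelial markers had 1 higher of 9 (Tek, 1.23 ± 0.13) and erythroid markers none of 10 (limma, 4 at an adjusted p under 0.05). Of 9 intestinal epithelium markers listed only 4 could be tested, with 2 higher and 2 lower. The part of these cell types in the differences of Saa3, Lcn2, Steap4 and the other genes was not tested. In whole tissue, fewer cells of a type and less RNA per cell cannot be told apart.

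**Figure D2:**
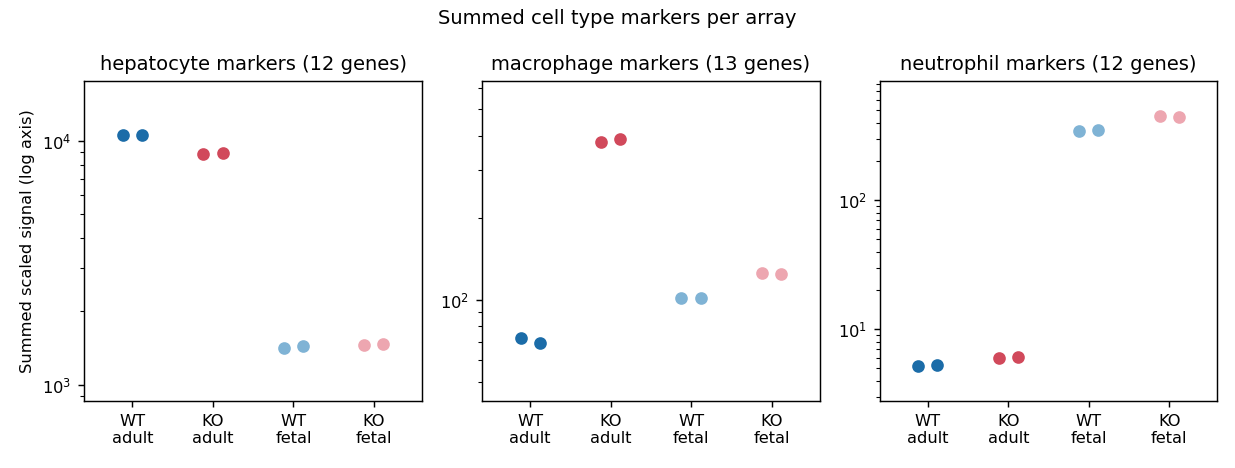
Summed scaled signal (log axis, with its own range in each panel) of hepatocyte, macrophage and neutrophil marker genes on each of the 8 arrays, 1 point per array. The macrophage sum is 380.2 to 388.7 on the adult knockout arrays and 69.2 to 72.2 on the adult wild-type arrays, and the neutrophil sum is 346.9 to 448.7 on the fetal arrays and at most 6.11 on the adult arrays.

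Of 25 further positive acute-phase proteins tested, none was higher and 1 was lower in the adult knockout, where 4.94% of all genes were called higher and 2.52% lower. The lower gene was Fgl1 (-1.74 ± 0.15), a fibrinogen-like protein of hepatocytes. The median was -0.11, against -0.10 for all genes. C-reactive protein (Crp) was at 0.45 ± 0.03, the fibrinogen chain Fgg at -0.17 ± 0.03, complement C3 at -0.42 ± 0.04 and hemopexin (Hpx) at 0.06 ± 0.03. Of 13 negative acute-phase proteins, whose production falls in inflammation, none was higher and 1 was lower, the apolipoprotein Apoa4 (-2.51 ± 0.50); the median was -0.34.

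Upstream of the proteins, the cytokine pathways had calls in 3 of 5 lists, in a comparison where 7.47% of all genes were called. Il1b, an inducing cytokine, was at least 3.03-fold higher in the adult knockout and was the only one of 10 ligands called, while Il6 was not well above background in either adult group. Of 11 receptors, Il1r1 (1.49 ± 0.04) and Lifr (1.00 ± 0.03) were higher and none was lower; the interleukin-6 receptor Il6ra was at -0.06 ± 0.07. None of 10 genes of STAT3 signalling was called (limma, 7 at an adjusted p under 0.05, against 55.6% of all genes). Stat3 itself was at -0.71 ± 0.02 and its feedback inhibitor Socs3 at -0.62 ± 0.05. Of 17 NF-kappaB genes, the inhibitors Irak3 (at least 3.95-fold) and Tnfaip3 (1.00 ± 0.11) were higher and none was lower. None of 12 transcription factors of these promoters was called (limma, 7 at an adjusted p under 0.05), with Cebpb at -0.40 ± 0.06 and Cebpd at -0.71 ± 0.03.

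Receptors and carriers of the proteins had 5 of 13 called higher and none lower in the adult knockout. Over all genes, 4.94% were called higher and 2.52% lower. Fpr2, a receptor for serum amyloid A, was at least 7.0-fold higher, and Fpr1 (2.33 ± 0.08) and Tlr2 (1.52 ± 0.11) were higher. Cd163, the macrophage receptor that takes up haptoglobin with haemoglobin, was at least 1.71-fold higher. The remaining call, Lrp2, had no signal well above background in either group and is given no fold. Of the 4 STEAP genes, Steap4 and Steap1 were called, the latter again dim in both groups, and Steap3 was at 0.33 ± 0.05. Among 11 lipocalin genes, which include Lcn2 and the Orm genes, Ptgds (at least 7.72-fold) was higher beside the falls of Lcn2 and Orm3.

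The genes next to the clusters, chosen after results had been seen, were read for the adult difference, where 7.47% of all genes were called. Of 3 genes on each side of the Saa cluster none was called; Saal1 was at 0.03 ± 0.14, Sergef at 0.30 ± 0.07 and Ldha at -0.87 ± 0.04. Of 3 on each side of the Orm genes, Col27a1 (1.33 ± 0.12) was called higher and Akna was at 0.75 ± 0.08.

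In fetal liver none of the 10 genes was called between knockout and wild type, where 1.93% of all genes were called (0.507% higher and 1.43% lower). By limma, 4 had an adjusted p under 0.05, among them Orm2, which was dim on every fetal array. Saa2, Orm1, Orm2 and Orm3 were not well above background on any fetal array, at scaled signals of 0.0109 to 0.0302, and no fold is given for them. Of the 6 others, Saa3, Lcn2 and Hp had an adjusted p under 0.05 at less than 2-fold, which 22.5% of all genes had at any fold.

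Hp rose in the fetal knockout. Its scaled signal was 9.34 and 10.4 in fetal wild type and 14.1 and 14.4 in fetal knockout, a log2 difference of 0.53 ± 0.05 (limma adjusted p = 8.1e-04). Lcn2 was also higher, at 3.75 and 3.74 in wild type and 4.71 and 4.63 in knockout (0.32 ± 0.04, limma adjusted p = 0.0024). The groups did not overlap in either gene, as held for 71.3% of all genes. Saa3 was lower, at 0.386 and 0.368 in wild type against 0.264 and 0.271 in knockout (-0.50 ± 0.07, limma adjusted p = 0.0031). It was -0.16 with normexp background correction (adjusted p = 0.076). With median scaling the fetal differences of Hp (0.56), Lcn2 (0.34) and Saa3 (-0.47) each had an adjusted p of 1.0.

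The remaining 3 genes did not pass the test. Saa1 was at 0.904 and 0.779 in fetal wild type and 1.01 and 0.961 in fetal knockout (0.23 ± 0.07, limma adjusted p = 0.061). Saa4 was at 1.31 and 1.26 against 1.18 and 1.21 (-0.10 ± 0.04, limma adjusted p = 0.091). Steap4 was at 0.0775 and 0.0667 in wild type, and its 0.0564 and 0.0521 in knockout were not well above background; the bound was at least 1.14-fold lower (limma adjusted p = 0.055).

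Among the related lists in fetal liver, 2 of 25 further positive acute-phase proteins were higher and 1 was lower. Over all genes, 0.507% were called higher and 1.43% lower in this comparison. Hamp, which encodes the iron hormone hepcidin, was higher by 1.91 ± 0.06 and Fgl1 by 1.20 ± 0.15. In fetal wild type, Fgl1 was well above background on only 1 array. Ptx3, not well above background in the fetal knockout, was at least 1.77-fold lower. Ptx3 could be tested only through fetal wild type, so the requirement for testing set its direction. Il6 was higher by 1.37 ± 0.23, the 1 ligand called of 10, and Steap3, the reductase of erythroid iron uptake, by 1.61 ± 0.05. Onecut1 (at least 1.02-fold), the lipocalin Apod (-1.73 ± 0.21) and the hepatocyte marker Pck1 (at least 1.28-fold) were the lower calls of their lists. Negative acute-phase proteins, cytokine receptors, STAT3 genes, NF-kappaB genes and the receptors and carriers had no call. By limma, 2, 2, 5, 4 and 4 genes of these lists had an adjusted p under 0.05, against 22.5% of all genes. Macrophage, neutrophil, adipocyte, erythroid, endothelial and intestinal markers had no call either (limma, 8, 3, 0, 4, 1 and 2 genes at that adjusted p). The fetal neutrophil sum was 346.9 to 352.4 in wild type and 441.8 to 448.7 in knockout, and the macrophage sum 101.4 to 101.5 and 123.9 to 125.5; their part in the fetal values of Lcn2 and Saa3 was not tested.

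**Figure D3:**
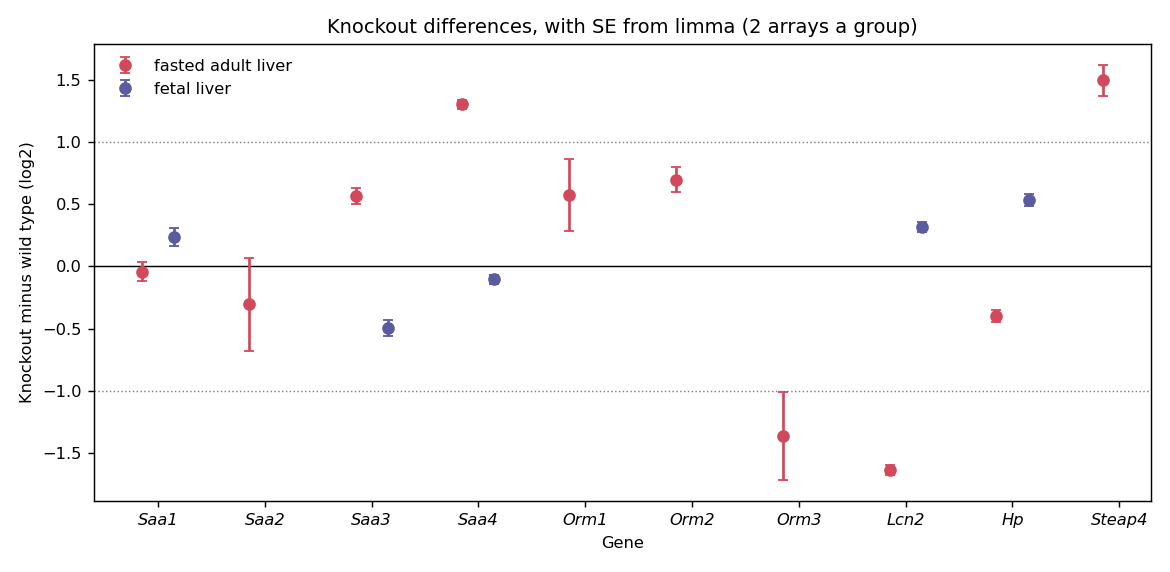
Knockout minus wild-type difference (log2, with the SE from limma, 2 arrays a group) of each gene in adult and in fetal liver, with dotted lines at 2-fold; genes not well above background in a fetal group have no fetal point. Saa3 and Saa4 lie above 0 in the adult and below 0 in the fetal samples, and Lcn2 and Hp the other way round.

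Only 5 genes, Saa1, Saa3, Saa4, Lcn2 and Hp, were well above background in all 4 groups. An interaction term, which sets the adult difference against the fetal one, was fitted for every gene but is given only for these. Among all genes tested, 9.74% were called in this test, 6.01% with the higher and 3.73% with the lower value in the adult. Lcn2, lower in the adult and higher in the fetal knockout, had a log2 difference between the effects of -1.95 ± 0.06 (limma adjusted p = 1.1e-06). Hp had the same pair of directions at -0.93 ± 0.07, under 2-fold (adjusted p = 3.7e-05). The value for Hp was -0.56 with quantile normalization (adjusted p = 7.4e-04) and -0.76 with median scaling (adjusted p = 0.37). Saa4 (1.40 ± 0.05, adjusted p = 3.2e-06) and Saa3 (1.06 ± 0.09, adjusted p = 8.9e-05) were higher in the adult knockout and lower in the fetal one. With normexp the term of Saa3 was 0.62 (adjusted p = 3.0e-04), under 2-fold. For Saa1 the term of -0.28 ± 0.10 did not pass (adjusted p = 0.060).

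The stages differed far more than the genotypes. In the wild type, 9 of the 10 genes were higher in the adult than in the fetal sample, where 55% of all genes were called, 27.3% higher and 27.7% lower. The adult and fetal arrays did not overlap in any of the 10, as in 92.6% of all genes. Saa2, Orm1, Orm2 and Orm3 could be tested only through the adult arrays, so the requirement for testing set their direction. The adult sample stood for a fasted male liver and the fetal one for a pool of both sexes at the stage of blood formation, so stage, sex and feeding cannot be told apart.

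**Figure D4:**
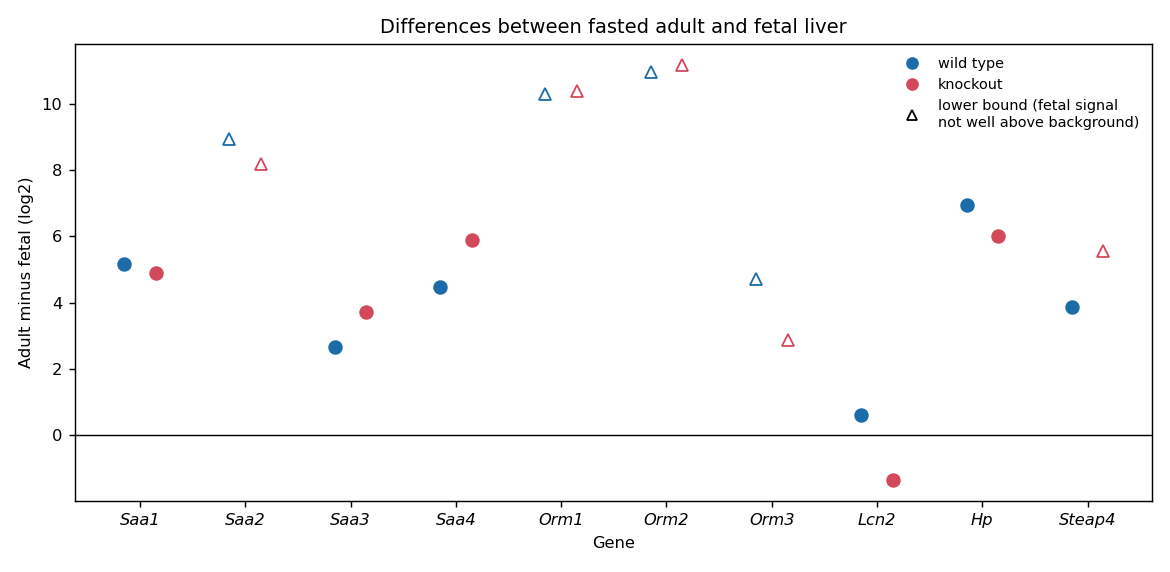
Adult minus fetal difference (log2) of each gene in wild type and in knockout; triangles are lower bounds, where the fetal signal was not well above background. Among the points drawn, only that of Lcn2 in the knockout lies below 0.

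From the scaled signals given above, Hp differed most among the genes measured on both sides, 122-fold between adult and fetal wild type (log2 6.93 ± 0.05, limma adjusted p = 1.2e-11). Saa1 was 35.8-fold (5.16 ± 0.07), Saa4 22.4-fold (4.48 ± 0.04), Steap4 14.7-fold (3.88 ± 0.12, or 2.16 with normexp) and Saa3 6.30-fold (2.65 ± 0.07) higher. Bounds were at least 492-fold for Saa2, 1249-fold for Orm1, 1972-fold for Orm2 and 26.1-fold for Orm3. With normexp, whose offset of 50 compresses low signals, the fitted log2 differences of these 4 genes were 6.38, 7.51, 8.25 and 2.68. The probe for Saa1 was well above background in fetal liver and that for Saa2 was not; how far either captures RNA of the other gene was not tested.

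Lcn2 ordered the groups differently from the other genes: adult wild type 5.65 (mean of the arrays), fetal knockout 4.67, fetal wild type 3.74 and adult knockout 1.82, with no overlap between neighbours in that order. Its wild-type stage difference of 0.59 ± 0.04 was under 2-fold, and it was -0.12 with median scaling. In the knockout its adult sample was 2.56-fold lower than the fetal one (log2 -1.36 ± 0.04, limma adjusted p = 2.0e-08). Neutrophil markers were lower in the adult for 10 of 12 tested in each genotype, with none higher. Ngp, Ltf, Mmp8, Mmp9, Retnlg and Cxcr2 were not well above background on any adult array and could be tested only through the fetal arrays. In the wild type the requirement for testing thus set their direction, and in the knockout it favoured the same one. Over all genes, 27.7% were called lower in the wild type and 27.6% in the knockout. The part of neutrophils in Lcn2 was not tested.

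The 9 other genes were again higher in the adult in the knockout samples. Of all genes, 53.3% were called, 25.8% higher and 27.6% lower, and the arrays of 94.2% did not overlap. For Saa2, Orm1, Orm2 and Orm3, tested only through the adult arrays, the requirement for testing set the direction here too. Hp was 64.0-fold, Saa4 59.2-fold, Saa1 29.5-fold and Saa3 13.1-fold higher. Steap4 was at least 47.1-fold, Saa2 at least 289-fold, Orm1 at least 1347-fold, Orm2 at least 2317-fold and Orm3 at least 7.38-fold higher. The stage comparisons use the same 4 samples as the genotype comparisons, so they are not separate evidence.

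The other genes of the response were mostly higher in adult wild type as well, where 27.3% of all genes were called higher and 27.7% lower. Of 25 further positive acute-phase proteins, 22 were higher and 2 lower. Among the 25, Serpina3k, Serpina3m, Serpina3n and Hamp2 were dim on every fetal array and could be tested only through the adult arrays. The protease inhibitor Serpina3k was at least 44249-fold higher, Fgl1 differed by 11.79 ± 0.15 and Hamp by 11.13 ± 0.06. In fetal wild type, Fgl1 was well above background on only 1 array. A2m was at least 1.12-fold lower, but it could be tested only through the fetal arrays, so the requirement for testing set its direction. Of 13 negative ones, 11 were higher and 1 lower, the corticosteroid carrier Serpina6 (-2.53 ± 0.04). Receptors had 7 higher and 2 lower of 11, with Il1rap at 7.83 ± 0.26 and Il6ra at 4.30 ± 0.07. Transcription factors had 9 higher and none lower of 12, with Cebpb at 4.10 ± 0.06, Cebpa at 3.34 ± 0.06 and Hnf4a at 3.54 ± 0.03. STAT3 genes had 3 higher and 3 lower of 10, NF-kappaB genes 6 and 1 of 17, ligands 3 and none of 10, and receptors and carriers of the proteins 6 and 3 of 13. All 12 hepatocyte markers were higher in adult wild type, with a summed scaled signal of 10560 to 10650 against 1414 to 1441 in the fetal sample. All 10 erythroid markers were lower, with sums of 453.9 to 454.8 against 2409 to 2647. On each adult wild-type array, 6 of these 10 were well above background. The part of these cell types in the stage differences was not tested.

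Genes with the most similar pattern were taken as those whose group means, centred on their own mean over the 4 groups, had the smallest root mean square difference from the gene's own. For Lcn2 it was Serpinb1a (0.04 on the log2 scale), a protease inhibitor. For Saa4 it was Ero1b (0.05), for Hp Cyp2d26 (0.04), for Saa1 Plscr2 (0.08) and for Saa3 Asah2 (0.07), which was itself not well above background in the fetal knockout. No partner is given for Saa2, Orm1, Orm2, Orm3 and Steap4, whose means in at least 1 fetal group were not well above background. With 4 group means a likeness describes these samples only.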

How the data were processed

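RNA of 4 liver samples was hybridised to 8 single-colour arrays. Per the labels' protocols, 200 ng of RNA was labelled with Cy3. Per the file headers, the arrays lay on 1 slide and Agilent Feature Extraction 10.7.3.1 made the spot values. Processed signal as deposited is an intensity on a linear scale, background-subtracted by that software; the deposited value table, also intensities, had a median of 18.1 in each column. The sources used here do not state its normalization, and it served as an alternative. Its 75th percentile was 184.6 in each column. Its adult calls (953 higher and 309 lower) nearly matched those with quantile normalization (954 and 309), so it is not a separate alternative to that setting.

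Each value is the log2 processed signal less that of the array's 75th percentile. Control spots were left out and outlier spots set to missing. The headers put the first array of each group in row 1 and the second in row 2 of the slide; each group had its own column, so column and group cannot be told apart. Names came from matching accessions, without versions, to RefSeq (GRCm38.p6; 26762 probes named, 28919 not). Testing required a probe well above background on each array of some group, and the brightest such probe stood for its gene.

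Differences were tested with limma 3.58.1 in R 4.3.3, all 8 arrays in 1 fit of 4 groups with an intensity trend, and adjusted by Benjamini and Hochberg over 14582 genes. The steps were tested on simulated data. Where a group had no array well above background, the brighter group was set against the higher of the dim signal and the lowest signal well above background ("at least N-fold"). The number of arrays limits the precision. The 10 genes and the gene lists were chosen with earlier results of these data known. All 10 genes are named, with called list genes and the leading regulators and markers of each list. Alternatives changed the scaling, background correction, filter, probe choice, slide row block and arrays used.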

Additional observations from a re-analysis of the deposited data

Results flagged for a closer look

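Among the genes well above background in all groups, 4 had a knockout difference in adult liver that departed from that in fetal liver by the interaction test. In both rows of the slide their adult and fetal differences ran opposite ways. The log2 difference between the effects was 1.06 for Saa3, 1.40 for Saa4, -1.95 for Lcn2 and -0.93 for Hp. The value of Hp was -0.56 with quantile normalization and -0.76 with median scaling, where it did not pass (limma adjusted p = 0.37); that of Saa3 was 0.62 with normexp. The fetal difference of Saa4 (-0.10) did not itself pass the test (limma adjusted p = 0.091). Groups of 2 arrays are too small for a search for single outlying arrays.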

How the results depend on the processing

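Of 820 values of the 10 genes under the alternatives, 807 kept their direction and their side of the threshold, 5 lost the call, 1 gained it and 7 changed direction. The adult difference of Saa1 (-0.04) became 0.10 with the 75th percentile of probes detected on all arrays, 0.16 with median scaling, 0.10 with quantile normalization, 0.04 (0.0385) with normexp, 0.11 in the deposited value table and 0.02 without adult wild-type array 1. The wild-type stage difference of Lcn2 became -0.12 with median scaling. The calls lost were those of Orm3 given above and the interaction of Saa3 (0.62 with normexp).

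Counts of the 10 genes moved as follows. Lower calls in the adult knockout (2) were 1 with normexp, 1 with the filter on all 8 arrays and 1 to 2 when an array was left out; higher calls (2) were 1 with that filter, which leaves out genes dim in fetal liver. Higher stage calls (9 in each genotype) were 4 and 4 with it. Of the interaction, higher calls fell to 1 with normexp, and lower calls were 1 to 2 with an array left out, 2 without fetal wild-type array 2, where Hp reached -1.01.

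Over all genes, the 1089 adult calls were 355 with normexp, 501 with the filter and 1991 with each probe tested; the 282 fetal calls were 67, 26 and 462, and the 1421 interaction calls 472, 693 and 2763. The 8020 wild-type and 7776 knockout stage calls were 5332 and 5141 with the filter and 15149 and 14267 by probe. Leaving out an array gave 1064 to 1448, 193 to 304, 1315 to 1736, 7899 to 8134 and 7665 to 7826. Within these totals, lower adult calls rose from 368 to 670 without adult wild-type array 1, and higher fetal calls fell from 74 to 41 without fetal knockout array 2. The median of all genes moved from -0.10 to 0.10 (adult) and from -0.01 to -0.72 (wild-type stage) with median scaling. Adult calls were 721 higher and 368 lower, and 1059 and 299 with that scaling, 913 and 251 with the detected percentile; wild-type stage calls were 3985 and 4035, and 2509 and 6355. The interaction split of 877 and 544 became 822 and 233, and the knockout stage split of 3757 and 4019 became 2634 and 5818. With the slide row as a replicate block, which the labels do not give as a pairing, the adjusted p of Orm3 in the adult was 0.019 and no call of the 10 genes changed; the adjusted p of Saa1 was 0.022 in the fetal samples and 0.017 for the interaction, under 2-fold. The fits of the adult or fetal arrays alone were chosen after seeing the data. The arrays were duplicates of 4 samples; signals of 4 genes in fetal liver lay below what the arrays resolve.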
